A study of Mus musculus with 36 samples.

Results

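Livers of mice that lack ATGL in white adipose tissue (AAKO) were compared with livers of control mice (CTRL) after 1 dose of CL316243, a drug that activates the beta 3 adrenergic receptor. The comparison took the 12 arrays, of 36 in the study, whose titles name fed mice of either genotype given the agonist: 6 AAKO and 6 CTRL. All 12 samples came from male C57Bl/6J mice of experiment 1 with free access to food, dosed by gavage at Zeitgeber time (ZT, hours after lights on) 10 with 3 mg/kg CL316243 in 0.5% carboxymethyl cellulose and killed at ZT 16, in the dark. Both groups carried the drug and the vehicle, so the contrast shows the genotype under the drug and not the drug itself. The other 24 arrays were AAKO and CTRL livers after a 24 h fast (6 and 6, experiment 1) and in the fed state without the drug (6 and 6, experiment 2), and served to ask whether a genotype difference departed from the one after the drug; they also entered the shared fit, the filter on dim probes and the choice of each gene's probe. Experiment 1 held no group given the vehicle alone. The promoter that removes ATGL, the alleles that the controls carry and the age of the mice are not given in the sources used here. The labels number the samples of a group without naming animals, so the p-values measure the spread between these samples.

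ATGL, the product of Pnpla2, is the lipase that starts the breakdown of stored triglyceride. In adipocytes the beta 3 receptor raises cyclic AMP and with it the release of fatty acids and glycerol, which reach the liver through the blood. In hepatocytes fatty acids are oxidised, made into ketone bodies or stored again as triglyceride, and they bind PPARα, a nuclear receptor that switches on the genes of fatty acid use. The receptor for the drug is found mainly on adipocytes in mice, and the liver is known to answer changes in adipose tissue through fatty acids, hormones and cytokines.

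Each value below is the log2 processed signal of a gene's probe minus the 75th percentile of its array, called its level, and differences are AAKO minus CTRL on that log2 scale with the standard error of the fit (a difference of 1 is 2-fold). A level describes 1 probe and is not set against that of another. Positions are those of the probe on the mm9 build as the files give them. Each of these 12 arrays had between 33866 and 36023 probes whose signal was marked well above background. Hybridised arrays were washed in 2 batches, 4 AAKO and 3 CTRL arrays in batch 1 and 2 and 3 in batch 2; the fit held the wash batch as a term, and tests within single batches rest on those few arrays. Genotype was the main axis of variation: over the 12 arrays 35.8% of the variance lay on the first principal component, with AAKO between -59.3 and -17.0 and CTRL between 28.4 and 49.2. On the second component, 11.8% of the variance, AAKO replicate 6 stood apart at 43.6 while the other 11 arrays lay between -33.4 and 17.4. That array alone carried skeletal muscle transcripts. Tnnt3, a fast muscle troponin, had a level of 6.24 there and at most -1.90 on the other 11 arrays, and Acta1, skeletal muscle actin, had 5.42 against at most -4.58. The 4 hepatocyte markers that were called were all higher in AAKO (Ass1, Cps1, Hnf4a and Tat, of 9), and the summed level of the 9 ran from 12.5 to 12.7 in CTRL and from 12.6 to 12.8 in AAKO, so the tissue label held in both groups.

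**Figure D1:**
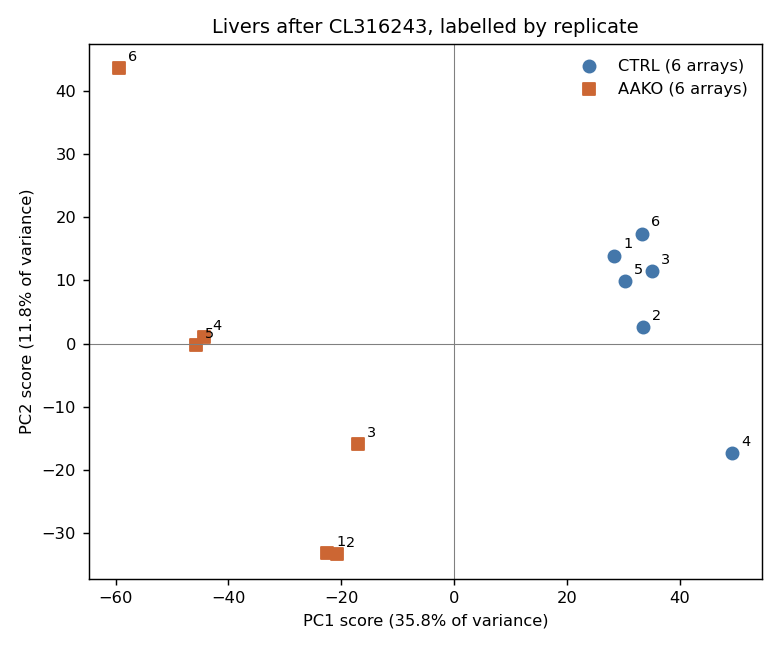
First and second principal component scores of the 12 livers (no unit), 1 point per array, with circles for CTRL and squares for AAKO. The genotypes lay on opposite sides of 0 on the first component, and AAKO replicate 6, the array with muscle transcripts, lay highest on the second at 43.6.

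Of 24097 genes tested, 5929 were called (24.6%, adjusted p under 0.05 by limma and Benjamini-Hochberg over all genes tested), 3132 higher in AAKO (13.0%) and 2797 lower (11.6%). For 2729 genes (11.3%) no AAKO array overlapped a CTRL array. The median difference over all genes was 0.03. The authors' deposited value table, scaled otherwise, gave 2501 higher and 3413 lower of 23883 genes. Within wash batch 1 the count was 2968 and within wash batch 2 it was 1514. Without AAKO replicate 6 the count was 5219, 2901 higher and 2318 lower, of which 4971 were among the 5929 with the same direction. At least 1.5-fold differences made up 2465 of the calls (10.2% of the genes tested) and at least 4-fold differences 153, 77 higher and 76 lower. The drop in genes of fatty acid use, the rise in endoplasmic reticulum chaperones, a shift in cytokine and interferon genes and a rise in amino acid catabolism were among the groups that stood apart from these shares. Fewer cells of a type and less RNA per cell cannot be told apart in whole liver.

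**Figure D2:**
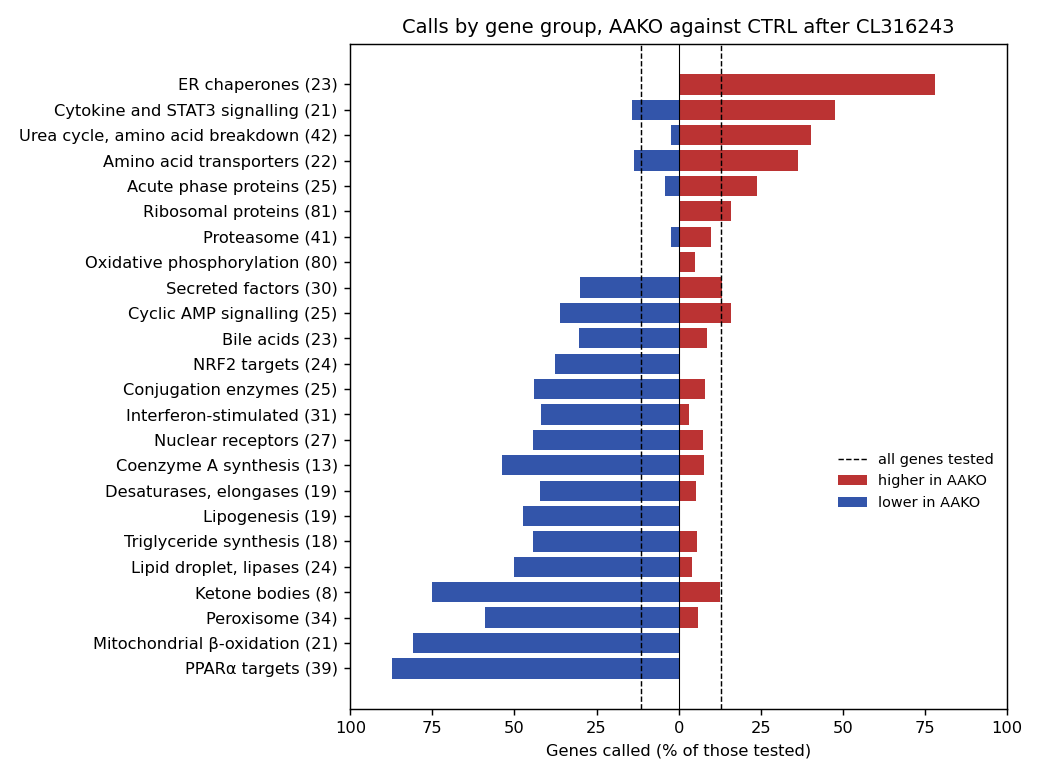
Percentage of the tested genes of 24 gene groups called higher (right, red) or lower (left, blue) in AAKO than in CTRL after CL316243, with the number tested beside each name. The dashed lines give the shares over all 24097 genes, 13.0% higher and 11.6% lower, and the endoplasmic reticulum chaperones (18 of 23 higher) and the PPARα targets (34 of 39 lower) reached furthest beyond them.

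Of the 39 list counts of 0 to 2 genes in 1 direction, over 49 lists, 26 changed with an array left out or another scaling, background correction or filter, within a range of 0 to 5.

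Enzymes of fatty acid handling were among the lowest genes. Of 39 tested targets of PPARα, 34 were lower, none was higher and the median difference was -0.98, against -1.61 in fasted mice and -0.26 in fed mice. Without AAKO replicate 6, 33 were lower. The sequence PPARα binds best, AGGTCA, any 1 base, AGGTCA, was searched for in RefSeq promoters (250 bases before to 50 after the start, both strands). It was in none of the 28 list genes with such a promoter and in 0.048% of all genes with one (13 of 27025). At so low a share, finding none among 28 genes decides nothing. Copies that differ in a letter or lie outside the window were not searched for. Acyl-CoA thioesterases, which release free fatty acid from coenzyme A, fell together on chromosome 12. Acot1 (chr12:85358452-85358511) ranged from 4.04 to 5.41 (median 4.83) in CTRL and from 1.09 to 2.28 (median 1.70) in AAKO, -3.09 ± 0.38, adjusted p = 3.07e-07. Its mitochondrial neighbour Acot2 differed by -2.88 ± 0.29, adjusted p = 9.42e-09, and the peroxisomal Acot3 by -3.85 ± 0.54, adjusted p = 2.98e-06 (a further probe was well above background on all 6 CTRL arrays and on no AAKO array). No AAKO array reached a CTRL array for any of the 3. Cyp4a10 and Cyp4a31, adjacent genes for fatty acid omega-hydroxylases on chromosome 4, behaved alike. Cyp4a10 levels ranged from 3.45 to 5.25 (median 4.78) in CTRL and from 0.81 to 2.42 (median 1.05) in AAKO (-3.20 ± 0.32), and Cyp4a31 differed by -3.39 ± 0.31. Members of both families are similar in sequence, so their probes may share signal.

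Vnn1, a pantetheinase and well-known PPARα target, ranged from 1.42 to 2.42 (median 1.88) in CTRL and from -0.91 to -0.10 (median -0.51) in AAKO (-2.48 ± 0.24, adjusted p = 6.3e-09). Within the mitochondrial beta-oxidation list, 17 of 21 genes were lower and none higher (median -0.50). The falls were smaller there: Acadm, the medium-chain acyl-CoA dehydrogenase, ranged from 6.62 to 6.93 (median 6.73) in CTRL and from 5.96 to 6.31 (median 6.02) in AAKO, a difference of -0.68 ± 0.086. The peroxisome list had 20 of 34 lower and 2 higher. Ehhadh, the peroxisomal bifunctional enzyme, differed by -1.27 ± 0.24, Pex11a, a factor of peroxisome division, by -1.28 ± 0.18, and Abcd3, a transporter of the peroxisomal membrane, by -1.06 ± 0.12. Of 8 ketone body genes 6 were lower. Bdh1, which makes beta-hydroxybutyrate, ranged from 6.12 to 6.51 (median 6.28) in CTRL and from 4.76 to 5.42 (median 5.15) in AAKO (-1.16 ± 0.25). The exception was Oxct1, an enzyme of ketone body use that the normal liver hardly makes, which was higher by 1.29 ± 0.22, adjusted p = 5.89e-05. Its AAKO values ran from 0.33 to 1.00 in 5 arrays and stood at 2.53 in replicate 6, the array with muscle transcripts, and without that array the difference was 0.97 and still called. Cox7a1, the muscle form of a cytochrome oxidase subunit, was called at 0.92 ± 0.33 only with that array and a part of the others: it was 0.43 without AAKO replicate 6 (adjusted p = 0.0731), and the call was also lost without CTRL replicate 1, 2, 4, 5 or 6. Bdh1 (-1.07) lost its call within wash batch 2.

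Lipid droplet proteins and lipases had 12 of 24 lower and 1 higher, Pnpla2 itself, whose liver signal is no check of an adipose deletion (0.65 ± 0.19). G0s2, an inhibitor of ATGL, ranged from 2.80 to 4.29 (median 3.21) in CTRL and from -2.13 to 0.95 (median -0.24) in AAKO (-3.83 ± 0.63, adjusted p = 2.88e-05). Cidec, which enlarges lipid droplets, ranged from 1.23 to 3.72 (median 2.02) and from -0.83 to 0.15 (median -0.46) (-2.71 ± 0.41). Plin5, which ties droplets to mitochondria, differed by -1.46 ± 0.21. For all 3 the groups were apart on every array. Lysosomal acid lipase, Lipa, which frees fatty acids and cholesterol inside lysosomes, differed by -1.23 ± 0.10, with CTRL between 3.40 and 3.56 and AAKO between 2.14 and 2.48. Pnpla2 (0.40) lost its call within wash batch 2.

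Genes of fatty acid and triglyceride synthesis leaned lower. Of 19 lipogenesis genes 9 were lower and none higher (median -0.20), and of 18 genes of triglyceride synthesis 8 were lower and 1 higher (8 and 0 without AAKO replicate 6). Acly, which makes cytosolic acetyl-CoA from citrate, ranged from 6.19 to 7.27 (median 6.75) in CTRL and from 4.83 to 5.53 (median 5.13) in AAKO (-1.53 ± 0.20, adjusted p = 7.19e-07). In fasted mice the genotype difference of Acly had the opposite sign, 1.22, and the 2 differences were -2.75 ± 0.28 apart (interaction, limma adjusted p = 1.73e-08). Pklr, liver pyruvate kinase, showed the same reversal, -1.22 ± 0.26 after the drug and 0.84 when fasted (interaction -2.06 ± 0.36, adjusted p = 5.1e-05). Gpam, the mitochondrial glycerol-3-phosphate acyltransferase, differed by -1.14 ± 0.19. Scd1, a desaturase and a usual marker of lipogenesis, was not called (0.21 ± 0.19, limma adjusted p = 0.472).

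Genes of lipid supply showed the same leaning with exceptions, while the list for lipid export had a median near 0. Acsl1, which activates long-chain fatty acids, ranged from 7.47 to 8.12 (median 7.76) in CTRL and from 5.68 to 6.45 (median 6.24) in AAKO (-1.64 ± 0.16, adjusted p = 7.11e-09; 2 further probes at -1.96 and -3.73, the last well above background on 2 of 6 AAKO arrays), while the fatty acid receptor Cd36 was not called (-0.21 ± 0.25, limma adjusted p = 0.582). Of 20 genes of fatty acid uptake and activation 5 were lower and 3 higher, and without AAKO replicate 6 the counts were 4 and 2. Of 19 desaturases and elongases 8 were lower, Elovl5 by -1.12 ± 0.15, and 1 was higher, Scd3, at 0.80 ± 0.11. In coenzyme A synthesis 7 of 13 were lower, among them Pank1, the pantothenate kinase (-0.93 ± 0.087). Apoa4, an apolipoprotein of triglyceride export, ranged from 5.68 to 7.25 (median 6.38) in CTRL and from 4.30 to 4.79 (median 4.71) in AAKO (-1.67 ± 0.27, adjusted p = 2.62e-05). Abca1, which loads cholesterol onto high-density lipoprotein, was higher by 0.89 ± 0.13. Of 24 cholesterol synthesis genes 5 were higher and 2 lower (1 lower without AAKO replicate 4 or CTRL replicate 2 or 5), with Mvd, a mevalonate pathway enzyme, at 1.26 ± 0.20.

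Receptors of these pathways were themselves lower: 12 of 27 nuclear receptors and coactivators fell and 2 rose, and without AAKO replicate 6 the counts were 11 and 1. Ppara (chr15:85632110-85632169) ranged from 6.48 to 6.87 (median 6.61) in CTRL and from 5.05 to 5.79 (median 5.44) in AAKO (-1.22 ± 0.13, adjusted p = 4.99e-08), a fall larger than that in fasted mice (-0.55; interaction -0.67 ± 0.19, adjusted p = 0.00686). Pparg, its relative that favours fat storage, differed by -1.32 ± 0.19. Creb3l3, the membrane-bound factor CREBH that acts with PPARα, ranged from 7.45 to 7.77 (median 7.58) in CTRL and from 6.49 to 6.88 (median 6.62) in AAKO (-0.97 ± 0.078, adjusted p = 2.46e-10). Nr1i3, the xenobiotic receptor CAR, differed by -1.66 ± 0.16. Esrrg, an orphan receptor, was well above background on 6 CTRL arrays and on 1 AAKO array and differed by -2.64 ± 0.46 (AAKO replicate 6 was the highest of its group at -2.85), with a further probe at -0.34 (5 of 6 AAKO arrays).

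A pair of neighbours on chromosome 7 were among the lowest genes of all. Fgf21, the fasting hormone of the liver, was -4.59 ± 0.59, and Fut1, the next protein-coding gene in the RefSeq order and a fucosyltransferase, ranged from -2.37 to -1.19 (median -1.83) in CTRL and from -6.37 to -3.84 (median -5.13) in AAKO (-3.43 ± 0.45, adjusted p = 9.25e-07; 2 of 6 AAKO arrays well above background). Bcat2, on the other side of Fgf21, had a difference of 0.049. The 24 genes with the largest differences held 3 such adjacent pairs: Fgf21 with Fut1, Cyp4a10 with Cyp4a31, and Alpk1 with Tifa.

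Secreted factors, Fgf21 among them, moved in both directions, with 4 of 30 higher and 9 lower. Inhbe, a liver activin subunit, ranged from 4.22 to 4.92 (median 4.49) in CTRL and from 1.53 to 2.75 (median 1.86) in AAKO (-2.50 ± 0.31, adjusted p = 4.03e-07). Angptl4, an inhibitor of lipoprotein lipase, ranged from 6.35 to 7.20 (median 6.97) and from 5.00 to 5.60 (median 5.47) (-1.55 ± 0.24, adjusted p = 8.81e-06), whereas it was higher by 0.83 in fasted AAKO livers (interaction -2.39 ± 0.33, adjusted p = 2.07e-06). Igfbp1, a binding protein of insulin-like growth factors that insulin suppresses, rose by 2.31 ± 0.59, adjusted p = 0.00378, and Hamp, the iron hormone hepcidin, by 1.37 ± 0.20, adjusted p = 4.28e-06. Slc40a1, the iron exporter that hepcidin acts on, differed by -0.99 ± 0.14. Angptl4 (-1.24), Hamp (1.25) and Igfbp1 (2.65) lost their calls within wash batch 2, as did Igfbp1 (2.06) within batch 1.

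The leptin receptor gave 2 readings. The brightest of its 6 tested probes (chr4:101452666-101452725) differed by 0.35 ± 0.19 and was not called (limma adjusted p = 0.19). The other 5 lie at other positions of the gene on chromosome 4. Of these, 3 were well above background on all 12 arrays and were higher by 2.62 to 3.25, each with a limma adjusted p of at most 2.05e-05 over 36550 probes. The remaining 2 were well above background on no CTRL array and on 4 and 5 AAKO arrays. The brightest of the 3 (chr4:101486122-101486181) ranged from -1.42 to 0.97 (median -0.24) in CTRL and from 2.26 to 3.76 (median 2.92) in AAKO, with no overlap. Which transcript each probe reads was not tested.

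Most endoplasmic reticulum chaperones rose. Of 23 tested, 18 were higher, none was lower and the median difference was 0.72, against -0.14 in fasted and 0.033 in fed mice. The count was 18 without AAKO replicate 6 and 14 and 16 within the wash batches. These genes fold and quality-check secreted proteins, and the unfolded protein response induces them through the factors ATF6 and XBP1. That response acts on a sequence known as the endoplasmic reticulum stress element (ERSE), CCAAT and CCACG with any 9 bases between them, which was searched for on both strands from 250 bases before to 50 after each gene's start in RefSeq promoters (GRCm38.p6). Of the 19 tested chaperone genes with such a promoter, 9 held it (47.4%), against 37 of all 27025 genes with one (0.137%). Among the 14 that were called, 7 did. The list was chosen to hold chaperones and XBP1 targets, so its share follows in part from that choice. The windows of 5 of those 7, for the genes with the largest differences, are shown as examples with the element in capitals. Where the element lies on the opposite strand it reads CGTGG, 9 bases, ATTGG.
Creld2: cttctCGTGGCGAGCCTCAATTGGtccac
Derl3: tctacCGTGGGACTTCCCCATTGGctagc
Syvn1: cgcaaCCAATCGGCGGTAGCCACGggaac
Hspa5: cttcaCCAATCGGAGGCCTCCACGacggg
Dnajc3: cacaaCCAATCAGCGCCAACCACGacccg
The elements lay -126, -156, -44, -65 and -105 bases from the start, at chr15:88819515-88819543, chr10:75893237-75893265, chr19:6046527-6046555, chr2:34772020-34772048 and chr14:118937822-118937850 (windows, GRCm38.p6). A match is a description of the letters and no evidence that a factor was bound. Calr and Canx also held the element and were not called (0.27 and 0.05).

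Creld2, a disulfide isomerase of that compartment, ranged from 5.04 to 6.34 (median 5.49) in CTRL and from 6.79 to 8.02 (median 7.31) in AAKO (1.85 ± 0.24, adjusted p = 7.41e-07). Manf, a secreted stress protein, ranged from 3.56 to 4.48 (median 3.71) and from 4.95 to 6.00 (median 5.58) (1.77 ± 0.22, adjusted p = 5.31e-07). Neither pair of groups overlapped. Hspa5, the master chaperone BiP, ranged from 6.94 to 7.57 (median 7.15) in CTRL and from 7.82 to 8.57 (median 8.25) in AAKO (1.07 ± 0.14, adjusted p = 7.94e-07). Sdf2l1 (1.62 ± 0.31), Dnajb9 (1.20 ± 0.17) and Derl3 (1.73 ± 0.50), partners of BiP or of protein disposal, rose as well, and Xbp1 itself by 0.79 ± 0.13. The genotype difference after the drug departed from that in fasted mice for 17 of the 23 genes (31.8% of all genes tested) and from that in fed mice for 15 (10.9%), with Creld2 at 2.28 ± 0.34 and Manf at 2.34 ± 0.31 against fasting. Ddit3, the stress factor CHOP, rose by 0.95 ± 0.17, adjusted p = 8.62e-05. The integrated stress response list, which ATF4 drives, had 7 of 24 higher and 4 lower. Its lower count was 1 without CTRL replicate 6 and 2 without AAKO replicate 4, 5 or 6 or CTRL replicate 1, 2 or 5. Derl3 lost its call within each wash batch alone (1.77 in batch 1 and 1.36 in batch 2).

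**Figure D3:**
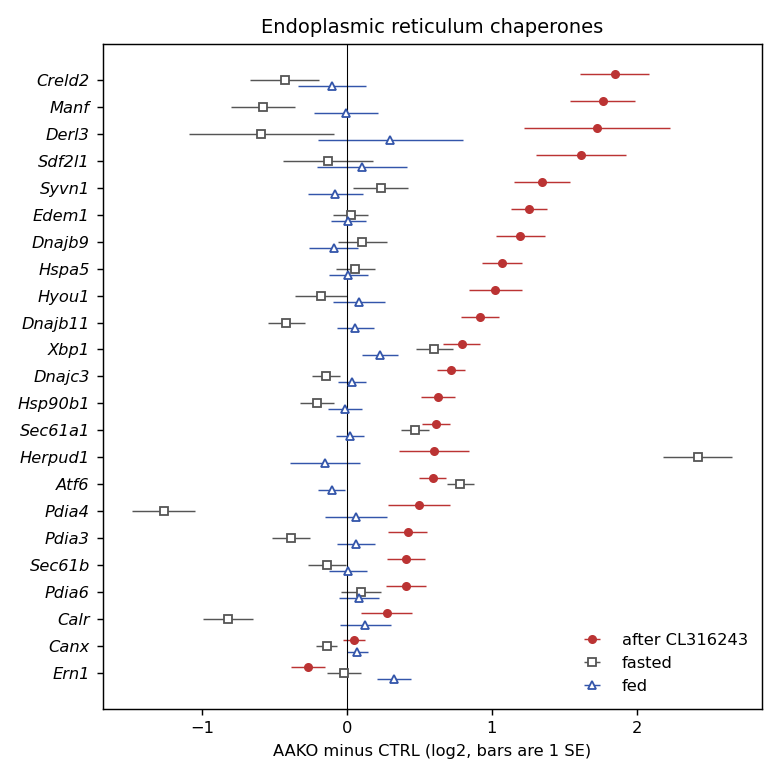
Genotype difference (log2, AAKO minus CTRL) of the 23 tested endoplasmic reticulum chaperone genes after CL316243 (filled circles), when fasted (open squares) and when fed (open triangles), with bars of 1 standard error. After CL316243 22 of the 23 differences lay above 0, whereas the fasted and fed medians were -0.14 and 0.033.

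Bhlha15, the secretory cell factor MIST1 and a known XBP1 target, was among the highest genes. It ranged from -1.83 to -0.27 (median -0.91) in CTRL and from 0.83 to 3.48 (median 2.60) in AAKO (3.48 ± 0.43, adjusted p = 4.45e-07), and fasted mice showed no called difference (-0.75, 4 of 6 fasted AAKO arrays well above background; interaction 4.23 ± 0.61, adjusted p = 3.5e-06). MIST1 is a marker of pancreatic acinar cells. Of the 6 acinar markers 3 were tested and Cela2a alone was called, at 1.57 ± 0.26, while Cpa1, Pnlip and Prss2 did not pass the filter, and the summed level of the list ran from 2.63 to 2.90 in CTRL and from 3.08 to 3.62 in AAKO. The part of such cells in the Bhlha15 result was not tested.

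Cytokine genes and their sensors formed another high group. Il33, an alarm cytokine stored in nuclei, ranged from -2.32 to -1.85 (median -2.08) in CTRL and from -0.31 to 1.27 (median 0.99) in AAKO (2.91 ± 0.20, adjusted p = 1.58e-11), with no difference called in fasted mice (-0.21; interaction 3.12 ± 0.29, adjusted p = 4.01e-09). Il1b, a cytokine of macrophages, ranged from -2.90 to -1.56 (median -2.45) in CTRL and from -0.54 to 0.43 (median -0.20) in AAKO (2.23 ± 0.30, adjusted p = 1.47e-06), and was lower in fasted AAKO livers (-1.08; interaction 3.31 ± 0.42, adjusted p = 5.64e-07). The groups were apart on all 12 arrays for both. The interleukin 1 receptor gene Il1r1 rose by 2.47 ± 0.38, adjusted p = 9.29e-06, and Il1rn, the natural antagonist of that receptor, fell by 1.64 ± 0.44 on the log2 scale (limma adjusted p = 0.00537). In the list of interleukin 6, interleukin 1 and STAT3 signalling 10 of 21 genes were higher and 3 lower, and without AAKO replicate 6 the counts were 8 and 1. Without CTRL replicate 4, 6 were higher, and 1 was lower without AAKO replicate 2 or CTRL replicate 5. Within wash batch 1 the counts were 7 and 0 (median 0.55), and within wash batch 2 they were 1 and 1 (median 0.32). In fasted mice, where 49.2% of all genes were called, 14 of the 21 were higher and 3 lower. The list median was 0.76 when fasted and 0.44 after the drug. Socs3, the feedback inhibitor of STAT3 signalling, differed by 1.68 ± 0.50, adjusted p = 0.012 and its groups overlapped. Alpk1 and Tifa, adjacent genes on chromosome 3 that sense and relay a bacterial sugar, rose together. Tifa ranged from 1.19 to 2.52 (median 1.99) in CTRL and from 4.30 to 6.02 (median 5.39) in AAKO (3.37 ± 0.39, adjusted p = 1.57e-07). Alpk1 differed by 3.24 ± 0.47, with a further probe at 2.19 (3 of 6 CTRL arrays well above background). Ccr8, a chemokine receptor, was higher by 3.05 ± 0.33 and also in fasted AAKO livers (2.25). Tnfaip6, a hyaluronan-binding protein of inflammation, was well above background on no CTRL array and on all AAKO arrays, at least 3.54-fold higher in processed signal. Il1b (1.73) and Socs3 (1.43) lost their calls within wash batch 2, as did Il1rn (-1.68) within batch 1.

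None of the 10 Kupffer cell and macrophage markers, 12 neutrophil markers, 7 tested T cell markers or 4 tested NK cell markers was called; the macrophage sum ran from 4.74 to 6.41 in CTRL and from 5.81 to 6.43 in AAKO, and the neutrophil sum from 7.24 to 7.51 and from 7.35 to 7.62. Most of the neutrophil sum lay on Csf3r (0.014 ± 0.051). S100a8 and S100a9, granule proteins of neutrophils, differed by 1.86 ± 1.02 and 1.71 ± 0.97, and Retnlg and Cxcr2, each well above background on 4 of 6 CTRL arrays, by 1.86 ± 1.01 and 1.73 ± 0.70, without passing the test (limma adjusted p from 0.0707 to 0.213). Of 10 markers of sinusoidal endothelium 3 were higher (Clec4g, Lyve1 and Ptprb), and of 8 cholangiocyte markers 2 were lower (Pkhd1 and Sox9). Their part in the results above was not tested.

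Acute phase proteins, which hepatocytes secrete in inflammation, had 6 of 25 higher and 1 lower, and without CTRL replicate 5, 10 were higher and 1 lower. Lcn2, lipocalin 2, had CTRL levels of 4.35, 4.19, 1.39, 2.40, 7.79 and 4.23 in replicates 1 to 6. CTRL replicate 5 lay above every AAKO array, and those ranged from 5.85 to 7.67 (median 7.06). Its difference of 2.91 ± 1.30 was not called (limma adjusted p = 0.104), and was 3.80 and called without CTRL replicate 5. Other members were called. Serpina3n, a protease inhibitor, ranged from 3.76 to 5.01 (median 4.51) in CTRL and from 6.13 to 7.27 (median 6.99) in AAKO (2.40 ± 0.31, adjusted p = 7.22e-07), and in fasted mice the difference was 0.40 (interaction 2.00 ± 0.44, adjusted p = 0.000636). Fga, the fibrinogen alpha chain, differed by 1.18 ± 0.22 and Crp, C-reactive protein, by 1.13 ± 0.19. The metallothioneins, metal-binding proteins that cytokines and glucocorticoids induce, were higher. Mt2 ranged from 3.58 to 9.41 (median 7.29) in CTRL but only from 9.96 to 10.21 (median 10.04) in AAKO (3.13 ± 0.94, adjusted p = 0.0139), and without CTRL replicate 3, the lowest, it was 2.38 with an adjusted p of 0.0515. Mt1 differed by 2.31 ± 0.68, adjusted p = 0.0123 with a second probe at 4.50. No spot was marked saturated. Fga (1.08), Crp (0.97), Mt2 (3.98) and Mt1 (2.97) lost their calls within wash batch 2, as did Mt2 (2.03) and Mt1 (1.47) within batch 1.

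Interferon-stimulated genes went the other way: 13 of 31 were lower and 1, Isg20, was higher (named here after its value was seen, 1.09 ± 0.14), and without AAKO replicate 6 the counts were 13 and 1. Within wash batch 1 the counts were 11 and 1 (median -0.49), and within wash batch 2 they were 2 and 1 (median -0.24). Fasted mice, where 49.2% of all genes were called, had 17 of the 31 lower and 4 higher. The list median was -0.37 both when fasted and after the drug. Ifit1, an antiviral RNA-binding protein, ranged from 0.28 to 1.51 (median 1.00) in CTRL and from -1.22 to -0.07 (median -0.53) in AAKO (-1.49 ± 0.24, adjusted p = 2.02e-05). Oasl1 (-1.32 ± 0.24), Gbp6 (-1.52 ± 0.29) and Rsad2, the antiviral enzyme viperin (-1.30 ± 0.22), were lower with no overlap of the groups, as was the interferon-induced chemokine Cxcl10 (-1.28 ± 0.32). Interferon acts through a short element (ISRE), searched for here as TTTC, any 2 bases, TTTC on both strands of the same promoter windows. It stood in 14 of the 23 list genes with a promoter (60.9%), against 3.993% of all genes with one, and in 5 of the 9 that were called. The list was chosen as interferon-stimulated genes, so its share follows in part from that choice. Isg15 (-0.33) and Bst2 (-0.06) also held the element and were not called. The windows of the 3 of those 5 called genes with the largest falls are shown as examples, the element in capitals.
Ifit1: ttcagTTTCACTTTCcagtc
Rsad2: ccaacTTTCATTTTCagaaa
Ifit3: gtaagTTTCACTTTCctctt
The first lies at chr19:34640780-34640799, the second at chr12:26456558-26456577 and the third at chr19:34583368-34583387; Ifit1 and Ifit3 each held a second copy. Ifit3 differed by -0.98. Ifit1 (-1.04), Rsad2 (-0.95), Oasl1 (-0.70), Gbp6 (-1.46) and Cxcl10 (-0.93) lost their calls within wash batch 2.

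**Figure D4:**
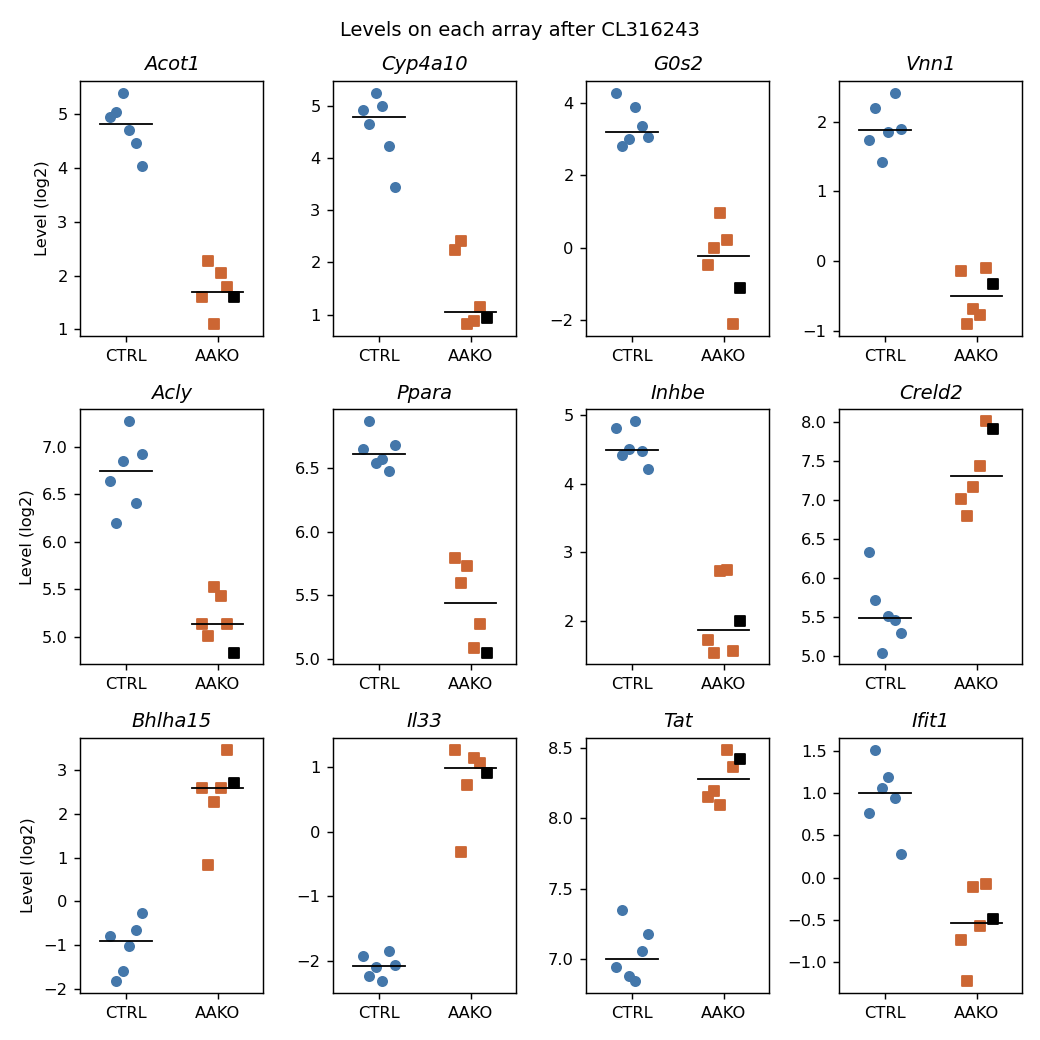
Level (log2 processed signal relative to the array's 75th percentile) of 12 genes on each of the 6 CTRL (circles) and 6 AAKO (squares) arrays after CL316243, with the group median as a line and AAKO replicate 6 filled in black. The 12 genes were picked for display, several of them through a rule that asks for groups without overlap. The groups do not overlap for any of the 12, from Acot1 (medians 4.83 and 1.70) to Il33 (medians -2.08 and 0.99). Over all genes tested 11.3% showed no overlap.

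Enzymes of amino acid breakdown and urea synthesis were more often higher than lower: 17 of 42 rose and 1 fell (median 0.16). Tat, which starts tyrosine breakdown, ranged from 6.84 to 7.35 (median 6.998) in CTRL and from 8.09 to 8.49 (median 8.28) in AAKO (1.25 ± 0.13, adjusted p = 2.76e-08). Sds, serine dehydratase, ranged from 4.50 to 5.03 (median 4.79) and from 5.83 to 6.55 (median 6.23) (1.41 ± 0.21, adjusted p = 8.38e-06), and Cps1, the control step of the urea cycle, differed by 0.69 ± 0.12. The fasted difference had the same sign in all 3 (1.16, 1.98 and 0.53), while fed mice showed 0.061, -0.48 and 0.049. Aass, of lysine breakdown, and Got1, aspartate aminotransferase, rose by 0.96 ± 0.17 and 0.88 ± 0.19. Among amino acid transporters 8 of 22 were higher and 3 lower. Slc38a2, a carrier of neutral amino acids, ranged from 3.62 to 4.52 (median 4.06) in CTRL and from 5.04 to 6.30 (median 5.69) in AAKO (1.58 ± 0.24, adjusted p = 8.07e-06), and Slc43a1, a carrier of branched-chain amino acids, differed by 1.46 ± 0.19. Cps1 (0.51) and Got1 (0.90) lost their calls within wash batch 2.

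Genes of glucose handling were mixed. Of 16 gluconeogenesis genes 4 were higher and 2 lower (1 lower without AAKO replicate 1 or 6 or CTRL replicate 1 or 2), and Pck1, the usual marker of that pathway, was not called (0.32 ± 0.18, limma adjusted p = 0.217). Slc2a2, the glucose transporter GLUT2, ranged from 2.26 to 3.00 (median 2.75) in CTRL and from 0.65 to 1.58 (median 1.16) in AAKO (-1.59 ± 0.26, adjusted p = 2.63e-05). Of 23 insulin and FoxO genes 8 were higher and 5 lower (3 lower without CTRL replicate 2), among them Irs1, an insulin receptor substrate, at -1.22 ± 0.21 and Pik3r1, the regulatory subunit of phosphatidylinositol 3-kinase, at -0.89 ± 0.16. Pik3r1 (-0.66) lost its call within wash batch 2.

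Some factors that peak at set hours of the day differed, and the mice were killed at 1 hour only. Wee1, a mitotic kinase under clock control, ranged from -0.90 to 0.37 (median 0.05) in CTRL and from -3.42 to -1.79 (median -2.74) in AAKO (-2.59 ± 0.23, adjusted p = 1.87e-09), and was higher by 0.79 in fasted AAKO livers (interaction -3.38 ± 0.33, adjusted p = 1.08e-08). Rgs16, a brake on G protein signalling, ranged from 2.98 to 5.16 (median 3.87) and from -1.43 to 2.42 (median 1.17) (-3.36 ± 0.86, adjusted p = 0.00404), again against a rise of 3.66 in fasted mice (interaction -7.02 ± 1.22, adjusted p = 4.1e-05). Hlf, a clock output factor, fell by 1.29 ± 0.13 on the log2 scale. The clock output list had 4 of 12 lower and 1 higher, and the 15 core clock genes 3 lower and none higher. Rab30, a small GTPase, repeated the reversal, -2.56 ± 0.34 after the drug and 2.12 when fasted (interaction -4.68 ± 0.48, adjusted p = 1.88e-08). Immediate early factors, which cells switch on within minutes of a stimulus, had 11 of 25 higher and 4 lower (2 lower without CTRL replicate 2), whereas in fasted mice, where 49.2% of all genes were called, 20 were higher and none lower. Btg2 rose by 1.88 ± 0.36 and Atf3 by 1.59 ± 0.40, and Egr1 fell by 1.90 ± 0.50 on the log2 scale. Rgs16 (-2.45), Egr1 (-1.89), Btg2 (1.69) and Atf3 (1.96) lost their calls within wash batch 2, as did Egr1 (-2.00) within batch 1.

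Genes of glucagon, adrenergic and cyclic AMP signalling had 9 of 25 lower and 4 higher. Pde4d, a phosphodiesterase that breaks down cyclic AMP, ranged from -1.44 to -0.89 (median -1.16) in CTRL and from -2.99 to -2.02 (median -2.82) in AAKO (-1.59 ± 0.21, adjusted p = 1.47e-06), against -0.13 in fasted mice (interaction -1.45 ± 0.30, adjusted p = 0.00035). Adcy6, an adenylyl cyclase of the liver, ranged from 0.59 to 1.11 (median 0.80) in CTRL and from -0.52 to 0.063 (median -0.23) in AAKO (-1.03 ± 0.10, adjusted p = 5.15e-09). Of 30 autophagy and lysosome genes 8 were higher and 2 lower (5 lower in the authors' value table), with Map1lc3b, a membrane tag of autophagosomes, at 0.75 ± 0.10.

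Detoxification genes leaned lower. Of 24 targets of NRF2, the antioxidant factor, 9 were lower and none higher. In fasted mice, where 49.2% of all genes were called, 16 of the 24 were lower and 3 higher. The list median was -0.59 when fasted and -0.20 after the drug. Gclc, which limits glutathione synthesis, ranged from 4.30 to 4.63 (median 4.52) in CTRL and from 2.66 to 2.96 (median 2.83) in AAKO (-1.68 ± 0.14, adjusted p = 3.82e-10), and fasted mice showed no called difference (-0.23; interaction -1.45 ± 0.20, adjusted p = 1.35e-06). Of 25 conjugation enzymes 11 were lower and 2 higher, and of 28 xenobiotic cytochromes P450 and their receptors 7 and 3. Of 23 bile acid genes 7 were lower and 2 higher. Abcb4, the phospholipid exporter of bile, ranged from 6.85 to 7.05 (median 6.99) in CTRL and from 5.55 to 5.95 (median 5.70) in AAKO (-1.23 ± 0.10, adjusted p = 2.19e-10), and Cyp7a1, the rate-limiting enzyme of bile acid synthesis, differed by -1.76 ± 0.43 with overlapping groups. Cyp7a1 (-1.40) lost its call within wash batch 1.

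Several of the most different genes stood outside these groups. Mtnr1a, a melatonin receptor, ranged from -0.47 to 0.21 (median -0.25) in CTRL and from -5.48 to -3.65 (median -4.52) in AAKO (-4.36 ± 0.30, adjusted p = 1.19e-11; 4 of 6 AAKO arrays well above background). Rnf138rt1, a gene on the X chromosome, differed by 5.67 ± 0.79, adjusted p = 2.62e-06, with 2 of 6 CTRL arrays well above background. Atp6v0a4, a proton pump subunit, ranged from -4.91 to -3.77 (median -4.66) in CTRL and from -1.67 to -0.004 (median -0.73) in AAKO (3.74 ± 0.46, adjusted p = 4.23e-07; 5 of 6 CTRL arrays well above background), against 0.18 in fasted mice (interaction 3.55 ± 0.65, adjusted p = 8.96e-05) and 0.34 in fed mice (5 of 6 fasted and 4 of 6 fed CTRL arrays well above background). Adcy1, an adenylyl cyclase that makes cyclic AMP, differed by 3.83 ± 0.50, adjusted p = 8.2e-07, with 3 of 6 CTRL arrays well above background, and by 3.52 in fasted mice, with 1 of 6. Rufy4, linked to autophagy, was well above background on all CTRL arrays and on no AAKO array, at least 4.70-fold lower in processed signal. Atp2b2, a calcium pump, ranged from -1.71 to 0.83 (median -0.016) in CTRL and from -3.71 to -2.73 (median -3.31) in AAKO (-3.15 ± 0.53, a further probe at -1.60), and Plch2, a phospholipase C, differed by -3.30 ± 0.43 (4 of 6 AAKO arrays well above background). Slc10a6, a carrier of steroid sulfates, was higher by 3.21 ± 0.56, with 4 of 6 CTRL arrays well above background, and by 3.71 when fasted. Pip5k1a, a lipid kinase, had 3 tested probes that disagreed: the brightest was higher by 4.50 ± 0.93, the others by 0.39 and 0.56. Slc10a6 (2.72) and Pip5k1a (5.14) lost their calls within wash batch 2. The size of a difference depended on the background correction for dim probes: after normexp with an offset, 23 of the 105 called genes with printed values had differences smaller by over 1.5 times, and all 23 kept their call and sign. Among them Rnf138rt1 was 2.32, Mtnr1a -1.99, Atp6v0a4 1.52, Adcy1 1.28, Plch2 -1.12 and Slc10a6 0.99. Of genes described above, Fgf21 was -2.93, Fut1 -0.96, Esrrg -0.45, Il1b 1.34, Il1rn -0.80, Alpk1 1.72, Ccr8 1.59, Wee1 -1.57 and Pde4d -0.82. Rufy4 was -0.51 and Tnfaip6 0.49, so their folds written as at least a number hold for the processed signal only.

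Genes of oxidative phosphorylation, the proteasome and the ribosome moved little. Of 80 oxidative phosphorylation genes 4 were called, all higher, and of 41 proteasome genes 4 were higher and 1 lower. In the authors' value table the higher and lower counts were 2 and 2 for oxidative phosphorylation and 1 and 2 for the proteasome. The higher count was 2 for the first without CTRL replicate 1 or 5 and 2 for the second without AAKO replicate 1 or 4 or CTRL replicate 4. Of 81 ribosomal protein genes 13 were higher, near the 13.0% over all genes, and the count was 4 after quantile normalization, in the authors' value table and without AAKO replicate 5, and 6 without CTRL replicate 1 or without the filter on dim probes. In fasted mice, where 49.2% of all genes were called, 39 oxidative phosphorylation and 34 proteasome genes were lower and 1 of each was higher, and of the ribosomal protein genes 7 were higher and 5 lower. Of 144 zinc finger genes 21 were higher and 16 lower (10 lower after normexp background correction). Collagens had 1 of 16 in each direction. Of 28 cell cycle genes 1 was higher and 6 were lower (median -0.25). Over all genes 13.0% were higher and 11.6% lower. Mcm2, part of the replication helicase, differed by -1.08 ± 0.19.

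The genotype difference after the drug overlapped with that after a fast, and the 24 arrays behind them were separate. Of the 5929 genes called after CL316243, 3098 (52.3%) were called in the same direction when fasted and 750 (12.6%) in the opposite direction. The fasted calls in either direction numbered 11848 (49.2% of the genes tested), and the 3098 were 26.1% of them. Of those 750, 445 were higher after the drug and lower when fasted and 305 the reverse. A further 2081 were called after the drug and not when fasted, and for 1064 of them the test of the difference passed. That test, over all genes, called 7666 (31.8%), and the test against the fed difference called 2622 (10.9%), with the fed groups in another experiment. Of the first, 4457 differences were above 0 and 3209 below (3385 and 4100 in the authors' value table), and of the second 1504 and 1118 (1197 and 1510). Within wash batches 1 and 2 the first count was 4709 and 3038 and the second 459 and 484. In fed mice 19 genes (0.0788%) differed, of which 13 were also called after the drug in the same direction and 1 in the opposite. The genes furthest apart between drug and fast included Rgs16 and Rab30 on the lower side and Bhlha15 on the higher. Zfp324, a zinc finger gene, was higher by 0.97 ± 0.25 after the drug, and in the fasted groups 5 of 6 CTRL arrays but 0 of 6 AAKO arrays marked it well above background. Ppp1r3g, which targets a phosphatase to glycogen, was higher by 5.94 when fasted and not called after the drug (1.23 ± 0.88, limma adjusted p = 0.339; interaction -4.71 ± 1.25, adjusted p = 0.00397). Among genes apart from the fed difference was Amigo3, a cell adhesion protein. After the drug Amigo3 was well above background on no CTRL array and on all AAKO arrays. It was at least 2.65-fold higher in processed signal, and its difference was 0.33 after normexp background correction. Zfp324 (0.70) lost its call within wash batch 2.

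**Figure D5:**
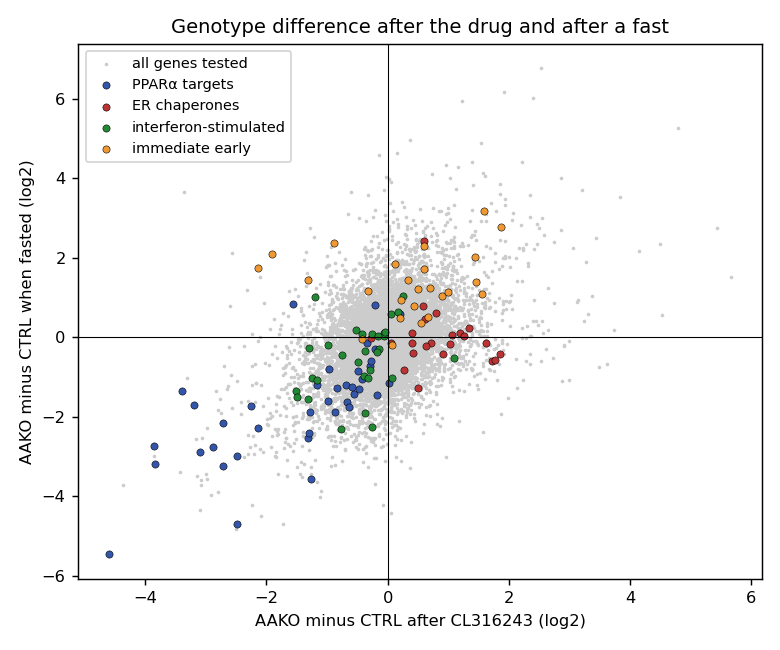
Genotype difference (log2, AAKO minus CTRL) after CL316243 on the horizontal axis against that in fasted mice on the vertical axis, for all 24097 genes (grey) and for the PPARα targets (blue), endoplasmic reticulum chaperones (red), interferon-stimulated genes (green) and immediate early factors (orange). The PPARα targets lay low on both axes, whereas the endoplasmic reticulum chaperones lay to the right with a fasted median of -0.14.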

How the data were processed

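RNA from 36 mouse livers was labelled in 1 colour and hybridised to Agilent mouse arrays. Per the file headers, the deposited scanner files were made with Agilent Feature Extraction 10.10.1.1 and hold, for each spot, the authors' background-subtracted processed signal, an intensity on a linear scale, with marks for signal well above background (all 59305 spots that are not controls were read). The authors' deposited value table holds log2 values of 36898 probes, whose columns share 1 distribution within each group (median 6.914 for CTRL and 6.878 for AAKO after CL316243); limma is named in the submitters' processing notes, and how that table was scaled is not given in the sources used here. The depth of an array has no count, so the number of arrays limits the precision.

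Here log2 of the processed signal minus the 75th percentile of each array was used. Spots of 1 probe were averaged and 2701 outlier marks (0.127% of spot values) were left out. Probe names came from the files, updated through RefSeq accessions for 32994 of 56605 probes, which changed 1535 symbols. Each gene took its brightest probe over all arrays, and entered the test where 5 or more of the 6 arrays of some group marked that probe well above background (24097 of 37061 genes). One model over all 36 arrays, with the 6 groups and the wash batch, was fitted with limma 3.58.1 (R 4.3.3), which gives two-sided p-values adjusted by Benjamini-Hochberg over all genes tested. Interactions are the genotype difference after the drug minus that in fasted or fed mice. The fit was tested on simulated data. A fold written as at least a number compares the brighter group with the lowest processed signal that was well above background, and is no bound under another background correction. Named genes were drawn from a rule, not all of whose genes are printed: the 12 highest and 12 lowest called genes whose groups do not overlap, the key and 4 most changed members of each gene list, Pnpla2, the 5 highest and lowest genes of each interaction, and cell type markers. Members and lists were chosen with earlier results of these data known. Promoters were RefSeq's (GRCm38.p6), matched by symbol. Replicate numbers do not pair the samples: the correlation between same-numbered arrays ran from -0.0763 to 0.0963. Alternatives were the scaling, background correction, filter, batch term, probe rule, each array left out, and each wash batch alone.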

Additional observations from a re-analysis of the deposited data

Results flagged for a closer look

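Among 222 groups of 6 arrays (the 111 genes with printed values in both drug groups), 13 held a level far from the other 5 by Dixon's criterion, where chance gives about 1 in 20 groups. In AAKO replicate 6, the array with muscle transcripts, these were Cox7a1 at 4.81, Oxct1 at 2.53 and Pck1, the control step of gluconeogenesis, at 8.76. In AAKO replicate 1 Pik3r1 stood at 0.65 and Rufy4 at -5.31, and in AAKO replicate 2 Il33 stood at -0.31. Among CTRL arrays the levels were -1.59 for Cd36 in replicate 4, -0.80 for Derl3 in replicate 6, 3.89 for Igfbp1 in replicate 3, 4.48 for Manf and -1.04 for Mcm2 in replicate 1, -0.90 for Wee1 in replicate 5, and -3.38 for Zfp324 in replicate 2.

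Interaction tests by limma set the genotype difference after CL316243 apart from that in fasted mice for 7666 genes and from that in fed mice for 2622. After the drug minus fasted, the differences that lay above 0 were 4.23 for Bhlha15, 3.56 for Atp6v0a4, 3.31 for Il1b, 3.12 for Il33, 2.34 for Manf, 2.28 for Creld2 and 2.00 for Serpina3n. Those below 0 were -7.02 for Rgs16, -4.71 for Ppp1r3g, -4.68 for Rab30, -3.38 for Wee1, -2.75 for Acly, -2.39 for Angptl4, -2.06 for Pklr, -1.45 for Gclc, -1.45 for Pde4d and -0.67 for Ppara.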

How the results depend on the processing

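The count of genes called after CL316243, 5929, lay between 4722 and 6006 over 10 alternatives of scaling, background correction, dim-probe filter, array set, batch term, slide and probe rule, and between 4877 and 6182 with each array left out in turn. The count against the fasted difference, 7666, lay between 7127 and 7592 with each array left out, and the count against the fed difference, 2622, between 2182 and 2969. Counts within single wash batches were lower: 2968 and 1514 after CL316243, 4709 and 3038 against the fasted difference, and 459 and 484 against the fed one, over 7 and 5 arrays of the drug groups. The replicate number as a block gave 5924, 7535 and 2576 calls and changed none of these counts by over 1.5 times; no pair of same-numbered arrays correlated above 0.1, and 1 of 6 AAKO arrays correlated best with the CTRL array of its own number. Of the calls from the authors' deposited values, 42.3% of those after CL316243 were higher, against 52.8%, with 45.2% against 58.1% and 44.2% against 57.4% for the interactions; the cause was not tested. Of 111 genes with printed values, 105 were called, and 74 of these kept their call and direction under every alternative run; 31 lost the call under at least 1, of which 3 (Cox7a1, Mt2 and Socs1) with an array left out. Cd36, not called, was 0.024 within wash batch 1, the opposite sign.

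A signal near background limits what these arrays show for dim probes, such as those of Tnfaip6, Rufy4, Fut1 and Esrrg. The wash batch, the slide and the experiment were the only batches on record. The adipose deletion cannot be checked in liver RNA. With 1 time point and no vehicle group in experiment 1, an effect of the drug, of the hour or of gavage on both genotypes cannot be told apart.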

Other observations

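In 3 genes, chosen after their values were seen, the AAKO livers spread widely. Slc2a5, the fructose carrier GLUT5, had AAKO levels of 1.35, 1.48, 1.39, 0.24, 0.40 and 0.094 in replicates 1 to 6 and CTRL levels of 1.85, 1.97, 2.34, 2.38, 2.44 and 2.19. Socs1, an inhibitor of cytokine signalling, had AAKO levels of -1.19, -1.07, -2.05, 2.68, 1.94 and 2.09 and CTRL levels of -0.53, -0.10, -0.34, -1.80, -2.42 and -1.80. Its CTRL levels were lower in replicates 4, 5 and 6 than in 1, 2 and 3, the reverse of AAKO. The call of Socs1 was lost under 13 of 25 alternatives. Cyp7a1 had AAKO levels of 4.03, 4.54, 3.72, 1.93, 1.92 and 2.40 and CTRL levels of 4.83, 4.20, 5.62, 4.89, 4.77 and 4.94. The standard deviations in AAKO and CTRL were 0.65 and 0.24, 2.06 and 0.96, and 1.15 and 0.45. On the first principal component AAKO replicates 1, 2 and 3 lay at -22.5, -20.8 and -17.0. Replicates 4, 5 and 6 lay at -44.4, -45.8 and -59.3. What the replicate numbers stand for is not given in the labels, and no grouping of the AAKO or CTRL arrays was tested.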
